A study of Rattus norvegicus with 24 samples.

Results

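Oxidative phosphorylation subunits are the proteins of the mitochondrial inner membrane that carry electrons from fuel to oxygen and make ATP. Here they are the 84 genes, of 26262 on the array, whose array name marks them as a subunit of complex I to V. The names were matched by their stems (Nduf with A, B, C, S or V, Sdh A to D, Uqcr, Cox 4 to 8 and Atp5), and the brightest probe of each gene was used. Counted by the stem of the array name, complex I has 38 of them, complex II 4, complex III 7, complex IV 15 and complex V 16. The stem alone set the complex, so Ndufa4 is counted in complex I and Cox7a2l in complex IV. The remaining 4 carry such a name on the array but are not subunits under their current names and were kept as a group of their own: Emc8 (a protein insertase component of the endoplasmic reticulum), Dmac2 and Dmac2l (named after distal membrane arm assembly) and Cox6c-ps1 (named as a pseudogene of Cox6c). After the filter on dim probes 83 of the 84 were tested among 20305 genes. Cox8c, an isoform of complex IV subunit 8, was the exception, and all 83 that passed were well above background on every one of the 24 arrays.

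The values come from 24 single-colour Agilent arrays of whole thyroid glands of RccHan Wistar rat pups, 4 arrays in each of 6 groups. In the 3 acrylamide groups (females at night, males at night, females killed in the morning) dams drank 3 mg of acrylamide per kg of weight daily in their water, starting on gestational day 6, and dosing went on in the pups until postnatal day 35 ± 3. The 3 matching control groups received tap water and were of the same age. Night means 10 PM and morning 10 AM. Acrylamide is a small electrophile that binds thiol groups. The labels do not tie an array to an animal or a litter, so the tests below measure the spread between these samples, which may be technical. A level is log2 of the processed signal minus the 75th percentile of its array, so that 0 stands for that percentile, and a difference is on the log2 scale.

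Complex I takes electrons from NADH and complex II from succinate; both pass them through coenzyme Q to complex III, which hands them by way of cytochrome c to complex IV, and complex V uses the proton gradient that results to make ATP. The subunits measured here are encoded in the nucleus, and a smaller set is encoded in mitochondrial DNA. In many tissues the nuclear subunits share promoter elements bound by NRF1 and the oestrogen-related receptors and are driven together by the coactivator PGC-1alpha. Thyroid follicular cells need ATP for iodide transport and thyroglobulin secretion, and they also spend NADPH on making hydrogen peroxide for iodination. Heart and skeletal muscle use their own isoforms of several complex IV subunits, among them Cox6a2 and Cox8b, where other tissues use Cox6a1 and Cox8a.

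RefSeq promoter windows on the GRCr8 assembly, read here over the 250 bases before the annotated start, were found for 71 members. The NRF1 core (GCATGCGC, either strand) stood in 9 of them, which is 12.68%, against 2.38% of all 27457 windows. Those 9 were Atp5mc2, Atp5me, Atp5mg, Atp5po, Cox8c, Ndufa11, Ndufa6, Sdhb and Uqcrc1. The site of the oestrogen-related receptors (TCAAGGTCA, either strand) stood in 1 member window, that of Atp5mc3 (1.41% against 0.37%). The core of the muscle factor MEF2 (TAAAAATA, either strand) stood in 1 member window, that of Cox6a2 (1.41% against 2.51%). Median GC content was 56.0% over the member windows and 52.0% over all. Shown are the muscle isoforms and a widely expressed counterpart, a window with the NRF1 core, the member called with acrylamide in the morning and the member that differed most between night and morning; capitals mark a motif match, 5′ to 3′ on the strand of the gene.
Cox6a2, chr1:192219717-192219966, minus strand: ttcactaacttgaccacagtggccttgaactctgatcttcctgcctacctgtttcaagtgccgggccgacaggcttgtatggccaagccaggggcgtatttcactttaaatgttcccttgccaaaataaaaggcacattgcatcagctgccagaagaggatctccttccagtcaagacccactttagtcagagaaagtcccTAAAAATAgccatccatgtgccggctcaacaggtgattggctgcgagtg
Cox8b, chr1:205408274-205408523, minus strand: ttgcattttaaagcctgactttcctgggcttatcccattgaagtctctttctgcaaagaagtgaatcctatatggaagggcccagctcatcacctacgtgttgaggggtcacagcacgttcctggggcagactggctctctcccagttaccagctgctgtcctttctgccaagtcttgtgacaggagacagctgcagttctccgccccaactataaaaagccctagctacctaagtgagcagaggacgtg
Cox8a, chr1:213833624-213833873, minus strand: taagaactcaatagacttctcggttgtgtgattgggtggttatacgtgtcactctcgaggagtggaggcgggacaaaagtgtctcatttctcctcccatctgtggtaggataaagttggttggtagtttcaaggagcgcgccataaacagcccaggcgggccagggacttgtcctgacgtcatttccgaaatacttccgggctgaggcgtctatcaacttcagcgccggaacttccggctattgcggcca
Sdhb, chr5:158547684-158547933, plus strand: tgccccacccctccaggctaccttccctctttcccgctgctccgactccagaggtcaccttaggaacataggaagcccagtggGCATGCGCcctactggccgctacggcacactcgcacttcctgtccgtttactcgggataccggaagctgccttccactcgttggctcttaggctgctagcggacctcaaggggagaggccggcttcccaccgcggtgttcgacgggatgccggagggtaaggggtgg
Atp5f1c, chr17:73333435-73333684, plus strand: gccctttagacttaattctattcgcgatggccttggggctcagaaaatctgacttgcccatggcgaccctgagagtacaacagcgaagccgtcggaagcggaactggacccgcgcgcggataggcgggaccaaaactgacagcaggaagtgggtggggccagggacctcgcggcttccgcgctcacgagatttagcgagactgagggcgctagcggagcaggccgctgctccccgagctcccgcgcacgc
Cox7c, chr2:18579171-18579420, minus strand: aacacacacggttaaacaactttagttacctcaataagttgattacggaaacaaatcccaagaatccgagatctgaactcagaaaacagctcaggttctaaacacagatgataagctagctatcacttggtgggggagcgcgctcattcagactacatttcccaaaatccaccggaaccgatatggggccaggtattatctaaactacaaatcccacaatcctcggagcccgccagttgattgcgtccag
The MEF2 core in the Cox6a2 window begins 49 bases before the start, and the NRF1 core in the Sdhb window 167 bases before it. A match of letters is a description of the window and shows no binding.

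The subunits were bright in every group. Of the 83, 77 lay above the 75th percentile of the array on all 24 arrays, against 24.4% of all genes tested. Those that did not were Cox4i2 (above on 20 of 24 arrays), Cox7c (10), Uqcrq (8) and, on 0 arrays, Dmac2, Dmac2l and Ndufa7. Thyroid markers were present: the mean level of 17 follicular cell genes was 1.19 to 1.87 on 21 of the 24 arrays and lower on 3 acrylamide arrays of the morning, at 0.69, 0.68 and, on replicate 1, -3.02.

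Some arrays stood apart from their group in markers of other tissues, and in bulk glands fewer cells of a type and less RNA per cell cannot be told apart. The mean of 30 skeletal muscle genes was 3.72, 1.87, 4.98 and 5.63 in acrylamide females at night, against 5.10 to 5.86 in control females at night. It was 5.97, 0.08, 5.14 and 3.55 in acrylamide males at night, against 5.31 to 6.49 in control males at night. In females in the morning it was 4.90 to 5.88 with acrylamide and 3.38 to 5.51 in controls. Replicate 4 of the acrylamide males at night also had parathyroid genes (Pth, Gcm2 and Casr) at -1.74, where the other night arrays had 3.35 to 4.22. The Y-linked gene Ube1y1 went against the sex label on 2 arrays, with -6.44 on replicate 4 of the acrylamide males at night (other males -4.16 to -3.13) and -4.56 on replicate 4 of the control females in the morning (other females -8.89 to -7.14). Both night slides hold their controls in row 1 and their acrylamide arrays in row 2, so row and treatment cannot be told apart at night. Night and morning arrays carry different scan numbers, and the morning scans saturated at a lower signal: 17 members were saturated on at least 1 morning array and 0 on any night array.

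In females at night most subunits were slightly lower with acrylamide, with no single gene past the threshold. At an adjusted p under 0.05 (limma, Benjamini-Hochberg over all genes tested, 2-sided) 0 of the 83 were called, where the background over all 20305 genes was 0%, and 0 members had an unadjusted p under 0.05, against 1.89% of all genes. The difference was negative for 70 of the 83 (84.3%), against 44.3% of all genes, and its median was -0.13 over the members and 0.02 over all genes. The complexes had like medians: -0.12 for complex I, -0.14 for complex II, -0.14 for complex III, -0.13 for complex IV and -0.13 for complex V. Markers of other tissues moved beside the subunits: fibroblast genes were lower for 9 of 9 (median -0.47), macrophage genes for 9 of 10 (-0.29) and endothelial genes for 8 of 8 (-0.16), and pituitary genes were higher for 6 of 7 (2.07) and T cell genes for 11 of 12 (1.33), with 0 called; their part in the members' values was not tested. All 4 complex II genes, all 7 of complex III and all 16 of complex V were negative, against 32 of 38 in complex I and 10 of 14 tested in complex IV.

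The shift in females at night was carried unevenly by the arrays. The median level of the members was 4.25, 4.73, 4.68 and 4.54 on the acrylamide arrays, against 4.63, 4.73, 4.74 and 4.86 on the control arrays. Only replicates 1 and 4 of the acrylamide group lay below every control, so the groups overlapped. Without replicate 1 of the acrylamide arrays the median difference was -0.03, with 57 of 83 negative, and without replicate 4 of the controls it was -0.06. For 2 members every acrylamide array lay below every control array, against 1.74% of all genes: Atp5f1e, the epsilon subunit of the complex V head (-0.16), and Atp5me, subunit e of its membrane part (-0.11).

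The member with the greatest difference in females at night was the muscle isoform Cox6a2. Its level was 4.60, 2.72, 5.63 and 6.43 with acrylamide, against 6.49, 6.18, 6.69 and 6.05 in controls, a difference of -1.51 (SE 0.79, adjusted p = 1.00). Replicate 2, which had the lowest muscle mean of that group, was the lowest for Cox6a2 too, and without it the difference was -0.80. The other muscle isoform, Cox8b, had 4.04, 5.20, 5.32 and 5.07 with acrylamide, against 5.32, 5.33, 5.32 and 5.64 in controls (-0.50, SE 0.39). Next in size were Atp5mc1, a gene for the rotating c ring of complex V (-0.46), and Cox7c and Cox5a, subunits of complex IV (-0.34 and -0.29). Atp5mc3, a further c ring gene, had -0.26 (0.00603 with the muscle mean of each array as a covariate), and the complex I genes Ndufb5, Ndufs6 and Ndufs3 had -0.23 each. Ndufa7, an accessory subunit of complex I, was on the positive side (0.34). The widely expressed isoforms stayed near 0, with 0.08 for Cox6a1, 0.09 for Cox8a and -0.10 for Cox7a2, while complex members near the median of their complex were Ndufb9 (-0.13), Sdhb (-0.17), Uqcrc2 (-0.14), Cox4i2 (-0.12) and Atp5f1d (-0.13).

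**Figure D1:**
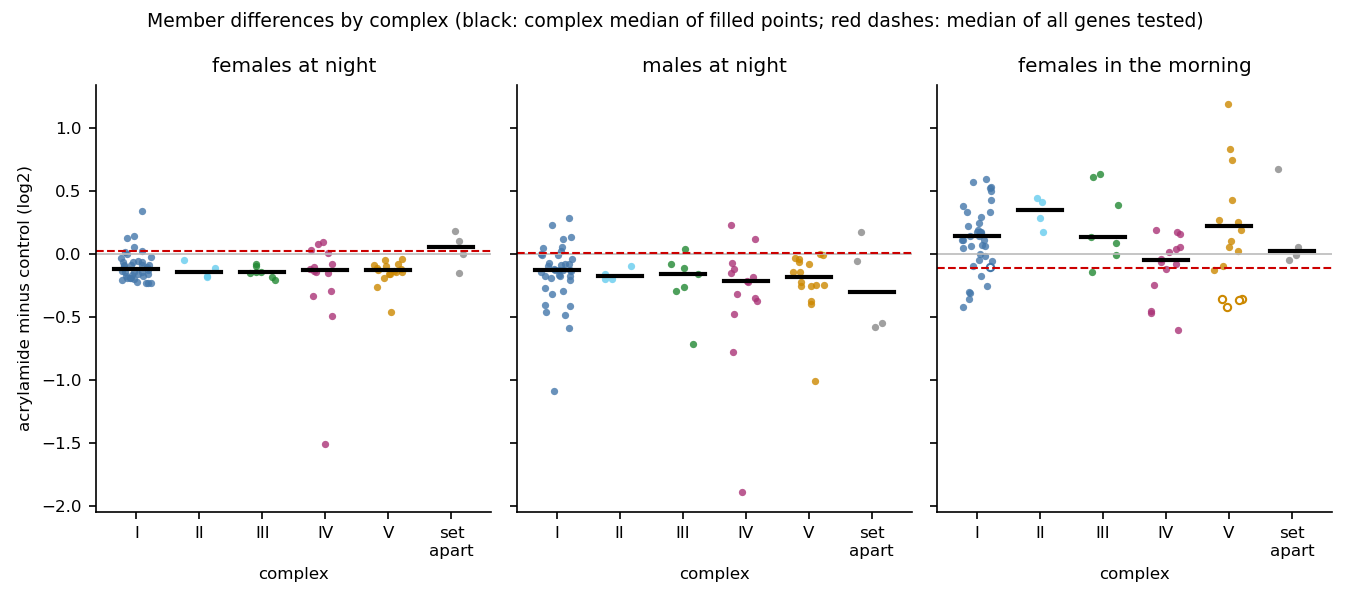
Difference of each member, acrylamide minus control (log2), by complex in the 3 strata; points are genes, black bars the median of the filled points of each complex, red dashes the median of all genes tested, and open points the 5 members saturated on all 4 acrylamide arrays of the morning. Medians of complexes I to V lay between -0.22 and -0.12 in both night strata and between -0.05 and 0.35 in the morning, and the lowest point at night is Cox6a2.

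Males at night gave a like picture with wider scatter. Again 0 of 83 members were called, with a background of 0% over all genes, and 6 had an unadjusted p under 0.05 (7.23% of members, against 13.6% of all genes); the smallest adjusted p was 0.353. The difference was negative for 72 of 83 members (86.7%), against 49.5% of all genes, with a median of -0.16 over the members and 0.00456 over all genes. Complex medians were -0.13 for complex I, -0.18 for complex II, -0.16 for complex III, -0.22 for complex IV and -0.18 for complex V, where all 16 members were negative. The median level of the members was 4.75, 4.999, 4.94 and 4.40 on the acrylamide arrays, against 5.01, 4.87, 4.91 and 5.09 on the control arrays. Replicate 4, the array that went against its sex label, was the lowest; without it the median difference was -0.06 and 56 members were negative. On the median-centred values the authors deposited, the median over the members was 0.02 and that over all genes 0.18, so the members stayed below all genes while the sign of their median turned. Other marker lists moved here too: fibroblast genes were lower for 9 of 9 (median -0.27), macrophage genes for 9 of 10 (-0.48), white fat genes for 8 of 8 (-0.50) and brown fat genes for 5 of 5 (-0.60), and pituitary genes were higher for 6 of 7 (4.03), with 0 called; their part was not tested.

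Several of the widest differences in males at night were much smaller without replicates 2 and 4. Cox6a2 was at 6.75, 1.96, 6.00 and 4.72 with acrylamide, against 6.95, 6.34, 6.35 and 7.33 in controls (-1.89, SE 0.79, adjusted p = 0.353). Cox8b was at 5.49, 5.31, 5.89 and 3.76, against 5.92, 5.77, 5.72 and 6.17 in controls (-0.78, SE 0.39, adjusted p = 0.374). Each gene thus had its lowest value on 1 of these 2 arrays, Cox6a2 on replicate 2 and Cox8b on replicate 4. Ndufa7 was at -0.99, -4.24, -1.06 and -1.45 with acrylamide, against -0.78, -0.91, -0.51 and -1.18 in controls (-1.09, SE 0.47). Atp5f1b, the catalytic beta subunit of complex V, was at 3.99, 2.54, 4.44 and 1.98 with acrylamide, against 4.32, 3.96, 4.11 and 4.61 in controls (-1.01, SE 0.48). Uqcrc1, a core subunit of complex III, was at 4.02, 3.55, 4.81 and 2.62 with acrylamide, against 4.39, 4.57, 4.28 and 4.60 in controls (-0.71, SE 0.36). Without replicates 2 and 4 together these differences shrank to -0.37 for Cox6a2, -0.21 for Cox8b, -0.18 for Ndufa7, -0.03 for Atp5f1b and -0.05 for Uqcrc1. Dmac2 had -0.55 with all arrays and 0.03 without those.

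Other wide differences in males at night did not rest on those arrays. Without them Cox6c-ps1 had -0.52 (-0.58 with all arrays), Cox7c -0.67 (-0.48 with all) and Ndufs7, a core iron-sulphur subunit of complex I, -0.36 (-0.48 with all). The second probe of Cox6c-ps1, at a mean level of -3.63, had the opposite sign (0.27 with all arrays). Ndufa9, an accessory subunit near the quinone site of complex I, had 2.61, 3.06, 2.32 and 2.32 with acrylamide, against 3.18, 3.14, 3.25 and 3.08 in controls (-0.59, SE 0.20, adjusted p = 0.353), and every acrylamide array lay below every control array. Leaving out any 1 array kept it between -0.75 and -0.50, and without replicates 2 and 4 it was -0.70. Ndufb2 and Ndufv2, further subunits of complex I, were the other 2 members whose groups did not overlap (-0.18 and -0.27), against 1.48% of all genes. Members near the median of their complex were Ndufa5 (-0.13), Sdhb (-0.16), Uqcrq (-0.16), Cox4i1 (-0.22) and Atp5f1a (-0.14). Cox6a1 and Cox8a, the widely expressed partners of the muscle isoforms, had differences of 0.12 and 0.23, and Cox7a2 had -0.21.

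**Figure D2:**
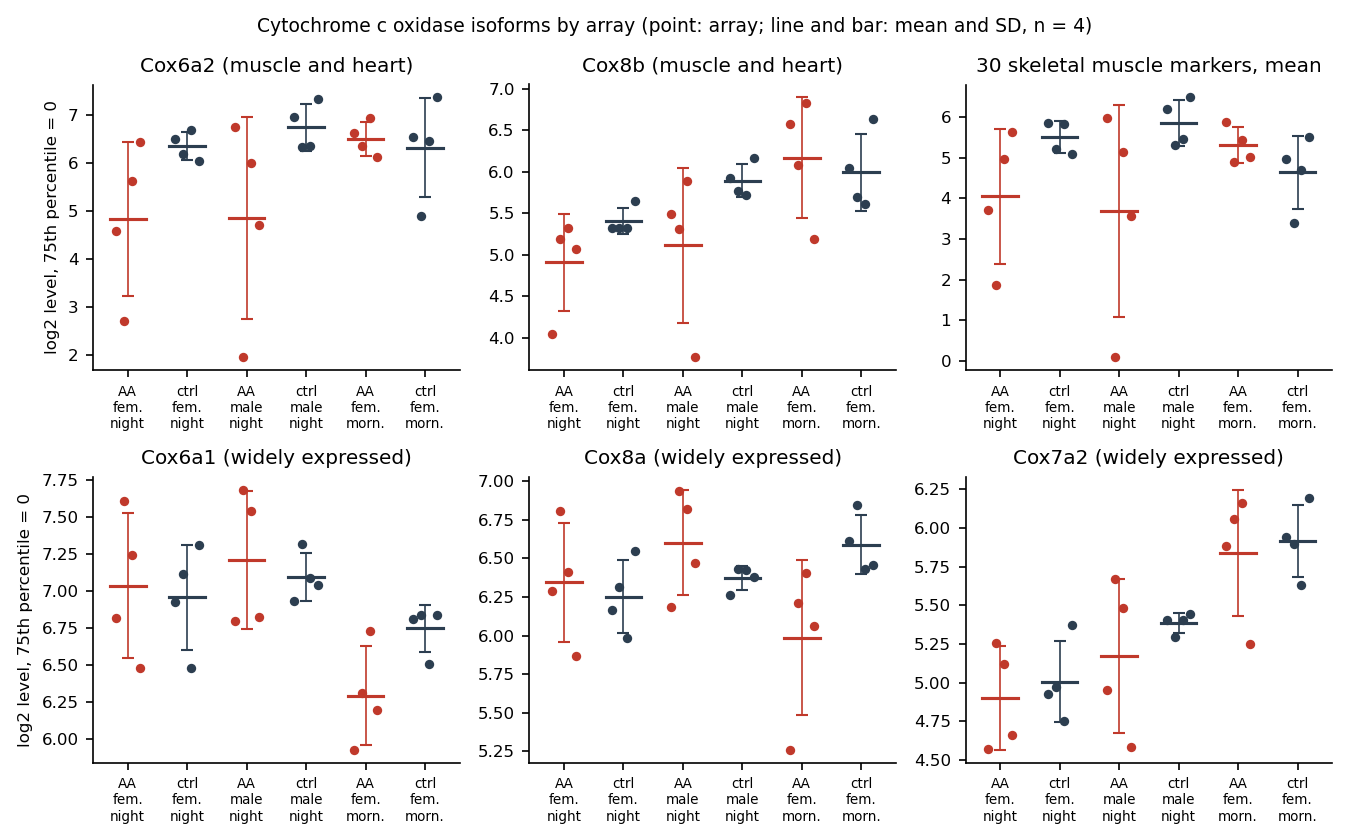
Level on each array of the muscle and heart isoforms Cox6a2 and Cox8b, the mean of 30 skeletal muscle markers, and the widely expressed isoforms Cox6a1, Cox8a and Cox7a2; points are arrays, lines and bars the mean and SD of 4 arrays. The lowest Cox6a2 values, 2.72 and 1.96, fall on the 2 arrays with the lowest muscle means, 1.87 and 0.08, while Cox6a1 and Cox8a have the highest values of their groups there. Cox8b is not lowest on those arrays, with 5.20 and 5.31, and its lowest night values, 4.04 and 3.76, fall on other arrays.

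The acrylamide differences at night were also fitted with the muscle mean of each array as a covariate. That of Cox6a2 was then -0.25 for the females and -0.00295 for the males, and that of Cox8b was -0.34 for the females and -0.55 for the males. The median over all members was -0.14 for the females and -0.16 for the males under the same covariate, against -0.13 and -0.16 without it. Cox7a1, the muscle form of subunit 7a, has no probe under that name.

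In females in the morning most subunits had positive differences and 1 of them was called higher. Atp5f1c, the gamma subunit that forms the central stalk of complex V, was at 5.17, 4.21, 4.31 and 4.19 with acrylamide, against 3.79, 3.38, 3.59 and 3.80 in controls. Every acrylamide array lay above every control array, and the mean was 4.47 ± 0.47 with acrylamide and 3.64 ± 0.20 in controls (SD, n = 4 each), a difference of 0.83 (SE 0.20, adjusted p = 0.0415 in limma). It was the only member called, 1 of 83, where the background was 2.08% of all genes; 20 members (24.1%) had an unadjusted p under 0.05, against 23.9% of all genes. The call was not stable. It was lost with slide as a term in the fit (0.75, adjusted p = 0.0812) and with only the 2 groups in the fit (adjusted p = 0.372). Without replicate 1 of the acrylamide arrays, which had thyroid markers at -3.02, it was lost too (0.60, adjusted p = 0.156). It was also lost without any 1 of the 4 control arrays of the morning (adjusted p 0.0555 to 0.133). Among night arrays, which enter only the shared spread, leaving out any control female, control male 1 or 2, or acrylamide female 3 gave adjusted p 0.0509 to 0.0552. Within slide 3, with 2 acrylamide and 3 control arrays, the difference was 0.67, and within slide 4, with 2 and 1, it was 0.88. Its probe lies at chr17:79755732-79756239 on rn4, the build named in the file headers.

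Other tissue markers moved in the morning as well. Oesophageal epithelium genes were higher for 9 of 11 (median 2.62, 1 called higher and 1 lower), with a mean level of 0.76, -1.33, 1.64 and -2.93 on the acrylamide arrays, against -2.57, -1.88, -2.72 and -2.65 on the controls. Cartilage genes were higher for 8 of 10 (1.23), while follicular cell genes were lower for 16 of 17 (-1.34, 2 called), C cell genes for 7 of 9 (-1.66) and parathyroid genes for 2 of 3 (-2.14). The part of these in the members' values was not tested.

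Over all members in the morning, 53 of 83 differences were positive and 30 negative (36.1%), against 59.6% negative of all genes, with a median of 0.10 over the members and -0.11 over all genes. The members' median level was 5.52, 4.97, 5.41 and 4.78 with acrylamide, against 4.86, 4.75, 4.75 and 5.26 in controls, so the groups overlapped. Without replicate 1 of the acrylamide arrays, the one with thyroid markers at -3.02, the median difference was -0.01, with 38 positive and 45 negative, and without replicate 3 it was 0.02. Without replicate 4 of the controls, the array against its sex label, it was 0.18. Within slide 3 the median was 0.21 (all genes -0.05) and within slide 4 it was -0.27 (all genes -0.16), so its sign differed between the slides. Atp5f1e and Atp5me were saturated on all 8 morning arrays, and Atp5f1a, Atp5mf and Ndufb8 on all 4 acrylamide arrays, so no difference is given for these 5; over the other 78 members 53 were positive and 25 negative, with a median of 0.11. Without those 5, complex II had a median of 0.35 (4 of 4 positive), complex V 0.22 (10 of 12), complex I 0.14 (26 of 37), complex III 0.13 (5 of 7) and complex IV -0.05 (6 of 14). Members saturated on fewer arrays stayed in these medians. In complex IV, Cox5b and Cox6c were each saturated on 3 acrylamide and 0 control arrays, and Cox6a1 on 2 and 3. The part of saturation in the complex IV median was not tested. Over the 66 members saturated on no array, 47 were positive and 19 negative, with a median of 0.14.

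The widest positive differences in the morning that did not pass the threshold were smaller without replicate 1 of the acrylamide arrays. Atp5f1b was at 5.52, 3.54, 2.97 and 4.57 with acrylamide, against 3.36, 3.14, 2.92 and 2.43 in controls (1.19, SE 0.48, adjusted p = 0.149). Leaving out any 1 array gave it 0.73 to 1.58 (adjusted p 0.0430 to 0.542), and 0.73 was the value without replicate 1 of the acrylamide arrays. Ndufa9 was at 4.11, 3.24, 3.32 and 3.24, against 3.18, 2.86, 2.78 and 2.82 in controls (0.57, SE 0.20, adjusted p = 0.110). Ndufs3, a core subunit of complex I, was at 4.79, 3.85, 3.97 and 3.85, against 3.79, 3.49, 3.36 and 3.68 in controls (0.53, SE 0.19, adjusted p = 0.114). Both complex I genes had no overlap between groups, with replicate 1 the highest acrylamide array; without it Ndufa9 had 0.36 and Ndufs3 0.31. Further positive differences were those of Atp5mc3 (0.74), which encodes the same c ring protein as Atp5mc1, Uqcrfs1, the Rieske protein of complex III (0.61), Uqcrc1 (0.63), Ndufs1, the largest iron-sulphur subunit of complex I (0.59), and Dmac2 (0.68). Without that array these were 0.49 for Atp5mc3, 0.37 for Uqcrfs1, 0.40 for Uqcrc1, 0.34 for Ndufs1 and 0.41 for Dmac2.

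On the negative side in the morning stood Cox8a, at 5.26, 6.21, 6.41 and 6.06 with acrylamide, against 6.61, 6.85, 6.43 and 6.45 in controls (-0.60, SE 0.23, adjusted p = 0.123). Its groups did not overlap, but it was saturated on 2 acrylamide and 2 control arrays, and without replicate 1 of the acrylamide arrays the difference was -0.36. Ndufa1, a small complex I subunit, was at 5.52, 5.65, 5.80 and 5.28 with acrylamide, against 5.94, 5.93, 5.97 and 6.10 in controls (-0.42, SE 0.14, adjusted p = 0.0925). In all, 4 members had every acrylamide array above every control array, against 1.88% of all genes, namely Atp5f1c, Ndufa9, Ndufs3 and Ndufs8, and 3 had every acrylamide array below, against 6.7% of all genes (Cox8a, Ndufa1 and Ndufb4). The muscle isoforms had small differences, 0.19 for Cox6a2 (saturated on 3 acrylamide arrays and 1 control array) and 0.18 for Cox8b, and Cox6a1 had -0.46 (saturated on 2 acrylamide and 3 control arrays). Members near the median of their complex were Ndufa11 (0.14), Sdhd (0.41), Uqcrh (0.13), Cox6b2 (-0.04) and, for complex V with its saturated members counted, Atp5hl1 (0.05), and Cox7a2 had -0.08.

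**Figure D3:**
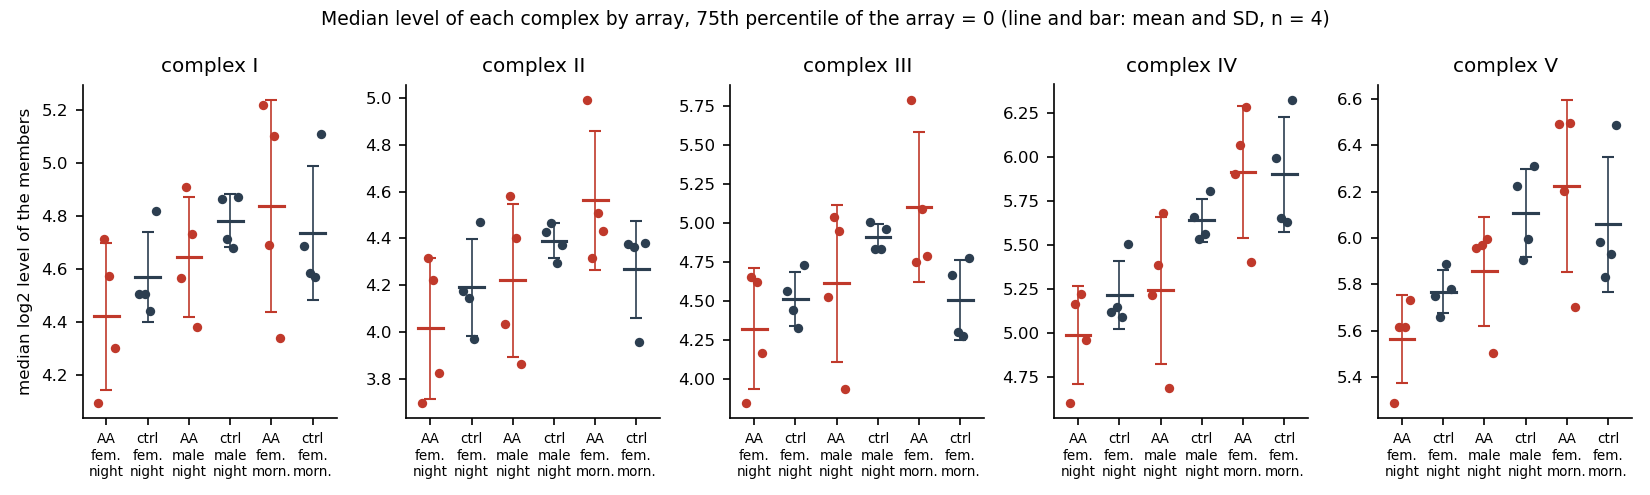
Median level of the members of each complex on each array (log2, 75th percentile of the array at 0), with the mean and SD of 4 arrays. In every complex the acrylamide arrays spread more widely than the controls at night, and replicate 1 of the acrylamide females is the lowest of the 8 female arrays at night.

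Set side by side, the strata do not share controls. At night 65 of 83 members (78.3%) were lower with acrylamide in both sexes, against 27.6% of all genes. Of these 65, 47 were higher in the morning, against 3385 of the 5611 genes lower in both sexes among all tested. The 6 members higher in both sexes at night (7.2%, against 33.9% of all genes) were Cox6a1, Cox8a, Dmac2l, Ndufa1, Ndufb4l1 and Ndufs5. In all 3 strata 0 members were higher, against 8.4% of all genes. Averaged over the 3 strata, 0 members were called, with 0.00492% of all genes called. An unadjusted p under 0.05 was reached by 2 members (2.41%, against 6.69% of all genes). The median was -0.06 against -0.03 for all genes, and the greatest difference was that of Cox6a2 (-1.07, SE 0.46, adjusted p = 0.727). The acrylamide effect in males minus that in females at night was called for 0 members, with 0% of all genes. An unadjusted p under 0.05 was reached by 1 member (1.20%, against 2.20% of all genes), Ndufa7 (-1.42, SE 0.66, adjusted p = 0.996). The effect at night minus that in the morning in females was called for 0 members, with 0% of all genes, although 12 had an unadjusted p under 0.05 (14.5%, against 16.3% of all genes). Its greatest sizes were -1.70 for Cox6a2 (SE 1.12), -1.28 for Atp5f1b (SE 0.68), -1.01 for Atp5mc3 (SE 0.38) and -0.99 for Atp5f1c (SE 0.28, adjusted p = 0.225), and the median over the members was -0.20 against 0.13 over all genes.

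The acrylamide arrays scattered more than the controls. The median SD of the members within a group was 0.24 with acrylamide and 0.16 in controls for the night females. For the night males it was 0.33 with acrylamide and 0.12 in controls, and for the morning females 0.39 with acrylamide and 0.23 in controls. Over all genes the same pairs were 0.23 and 0.18, 0.39 and 0.25, and 0.45 and 0.25. Pooled over the groups the members' median SD was 0.27, below the 0.37 of all genes. The members that varied most were Cox6a2 (pooled SD 1.19), Atp5f1b (0.72), Ndufa7 (0.70), Cox8b (0.58) and Uqcrc1 (0.53). Cox7a2l, which joins complexes III and IV into supercomplexes, varied least, with a pooled SD of 0.09.

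Night against morning was compared in control females, and here time cannot be told apart from slide and scan. Of the 83 members 2 were called higher at night and 21 lower, where 20.8% of all genes were called higher and 27.8% lower. Those lower came from every complex: 8 from complex I, 1 from complex II, 2 from complex III, 5 from complex IV and 4 from complex V, with Cox6c-ps1 besides. The median over the members was -0.14, against 0.02 over all genes. On the authors' deposited values, centred on the median of each array, 13 were called higher and 13 lower, with a median of 0.12, so the balance of directions depended on the scaling.

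The greatest difference was that of Cox7c, a small subunit of complex IV. It was at -0.89, -0.63, -0.44 and 0.19 at night, against 3.74, 3.73, 3.94 and 4.38 in the morning (-4.39, SE 0.27, adjusted p = 2.85e-11). Its probe lies at chr2:15254139-15255000 on rn4. The acrylamide arrays fell on the same sides, with -1.22 to -0.18 in females at night and 3.41 to 4.40 in the morning. Cox6c-ps1 was at 0.59, 0.70, 0.83 and 1.10 at night, against 3.98, 3.70, 3.81 and 4.51 in the morning (-3.20, SE 0.24), and its second probe differed by -5.47. Cox6b2, known as the testis form of subunit 6b, was at 2.16, 2.18, 1.83 and 1.99 at night, against 4.52, 5.10, 4.68 and 4.83 in the morning (-2.74, SE 0.31). Cox4i2, an isoform of subunit 4 best known in lung, was at 0.26, 0.26, -0.06 and 0.53 at night, against 2.89, 3.44, 2.70 and 2.62 in the morning (-2.67, SE 0.22). Uqcrq, a small subunit of complex III, was at -1.46, -1.50, -1.56 and -1.47 at night, against 0.97, 0.75, 0.57 and 0.57 in the morning (-2.21, SE 0.20). In each of these the night and morning arrays were apart by more than the whole spread within either.

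Smaller falls at night spanned the complexes, among them Ndufb4l1 (-1.38), Sdhc, a membrane anchor of complex II (-0.99), Cox5a (-0.91), Cox7a2 (-0.91), Ndufc1 (-0.88), Ndufs5 (-0.79) and Atp5mg (-0.73), all past the threshold. With saturated probes left out Atp5mg had -0.41 and did not pass (adjusted p = 0.0864). Past the threshold too were Ndufb2, Uqcrb, Ndufs4, Atp5hl1, Atp5pf and Atp5pd, at -0.71 to -0.59, and Ndufc2 (-0.47) and Ndufb4 (-0.30). The second probes of Ndufb4 and Ndufs4 went the other way, at 0.28 and 0.43. On the authors' deposited values Ndufb2, Uqcrb, Ndufs4, Atp5hl1, Atp5pf and Atp5pd did not pass, at -0.45 to -0.33 (adjusted p 0.0561 to 0.247). Ndufs4 also lost its call with the mean of its probes (-0.098, adjusted p = 0.693), and Atp5pf did so under 4 further settings (adjusted p 0.0506 to 0.175). Ndufb4l1 and Atp5hl1 are named as copies of Ndufb4 and of a complex V subunit, and their probes may also bind those transcripts. The 2 members that rose at night were Dmac2 (1.13, SE 0.32, adjusted p = 0.00614) and Cox7a2l (0.35, adjusted p = 0.00664). For Cox7a2 the second probe had a difference of -0.41. Cox6a2 (0.03), Cox6a1 (0.21), Cox8a (-0.33) and Cox8b (-0.59) did not pass, but with the muscle mean as a covariate Cox6a2 had -0.71 and passed (adjusted p = 0.00111), and with only the compared groups in the fit Cox8b passed (adjusted p = 0.0465). Atp5f1e and Atp5me, saturated on every morning array, are given no difference.

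**Figure D4:**
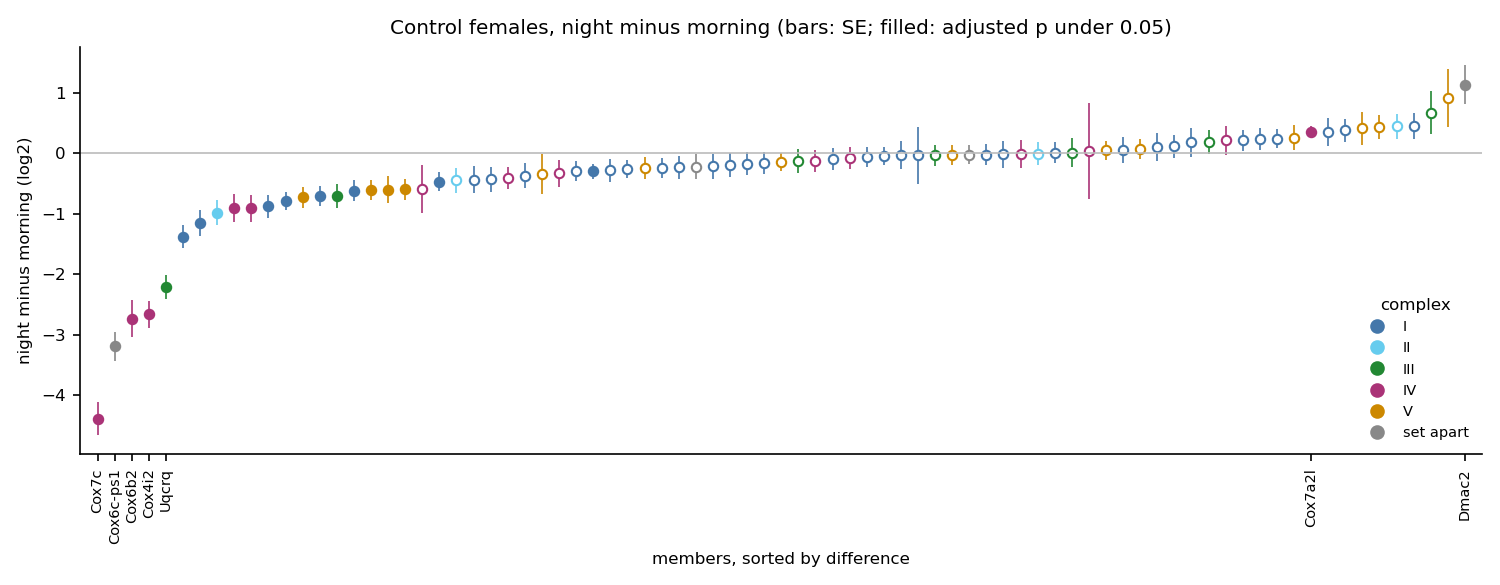
Night minus morning difference in control females for 81 members, sorted, with SE bars; colours mark the complex, filled points an adjusted p under 0.05, and names the 5 lowest members and the 2 that rose. The 5 members at the low end lie between -4.39 and -2.21 and the others between -1.38 and 1.13.

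In controls at night the males ran above the females for nearly every subunit, by amounts that passed no test. The difference was positive for 81 of 83 members, with a median of 0.25 against 0.00048 over all genes. Of the members 0 were called, with 0.00985% of all genes called, and 3 had an unadjusted p under 0.05 (3.61%, against 1.63% of all genes). For 17 members every male array lay above every female array, against 1.99% of all genes. They included Ndufv2, a flavoprotein subunit of complex I, at 5.28, 5.18, 5.20 and 5.32 in males, against 4.77, 4.85, 4.75 and 4.995 in females (0.40, SE 0.18, adjusted p = 1.00). Ndufa9 had 3.18, 3.14, 3.25 and 3.08 in males, against 2.77, 2.59, 2.59 and 2.89 in females (0.45, SE 0.20), and Cox8b differed by 0.49. The sexes lay on 1 slide each at night, so sex and slide cannot be told apart. The muscle mean was 5.31 to 6.49 in these males and 5.10 to 5.86 in these females, and with it as a covariate the members' median was 0.25, as without it, with 2 members negative.

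For the 17 genes with more than 1 probe, how far the other probes moved with the brightest depended on the comparison. Signs differed in 2 of the 17 for acrylamide in the night females, 6 in the night males, 8 in the morning females, 8 for night against morning and 1 for males against females. Atp5mc3 was one where they differed between night and morning, with 0.41 on the brightest probe and -0.64 on the other, while both gave the same morning effect of acrylamide (0.74 and 0.75). Uqcr11, a small subunit of complex III, had -0.03, -0.83 and 0.01 on its 3 probes for night against morning.

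Genes that work beside the subunits were read the same way. Of 40 assembly factors 0 were called with acrylamide in any stratum, with medians of -0.02 (night females), -0.00262 (night males) and 0.14 (morning females); the medians of the other lists follow in that order. Of 19 electron carriers and coupling partners (cytochrome c, adenine nucleotide carriers, uncoupling proteins) 0 were called, with medians of -0.20, -0.31 and 0.42. Ckmt2, the mitochondrial creatine kinase of muscle, had -1.37, -1.83 and 1.00, and Slc25a4, the adenine nucleotide carrier of heart and muscle, -0.69, -1.01 and 1.05. Of 21 genes of the citric acid cycle and pyruvate dehydrogenase 0 were called, with medians of -0.10, -0.26 and 0.39. In the morning 20 of 21 were positive, led by Mdh2, mitochondrial malate dehydrogenase (1.29, SE 0.39, adjusted p = 0.0749). Their mean level there was 3.51, 2.53, 2.80 and 3.01 with acrylamide, against 2.28 to 2.76 in controls. The highest was replicate 1, the array with thyroid markers at -3.02. Of 19 regulators of mitochondrial biogenesis 0 were called, with medians of 0.03, -0.13 and 0.16. Of 55 genes of the mitochondrial ribosome 0 were called, and their medians were 0.00162, 0.01 and 0.02. The muscle list itself had medians of -1.43, -2.08 and 0.74, with 0 of 30 called in each stratum. Between night and morning in controls, where 20.8% of all genes were called higher at night and 27.8% lower, 14 of 55 genes of the mitochondrial ribosome were called (10 higher and 4 lower), 6 of 19 electron carriers and coupling partners (4 and 2) and 4 of 21 genes of the citric acid cycle (4 and 0). In the same comparison 9 of 40 assembly factors were called (5 higher and 4 lower), among them Ndufaf2, an assembly factor of complex I (-4.27, SE 0.26), and Coa5, one of complex IV (1.60, SE 0.35). In the same comparison 6 of 19 regulators were called, all higher at night, among them Polg, the mitochondrial DNA polymerase (2.05, SE 0.37), Sirt3, a mitochondrial deacetylase (1.04, SE 0.22), and Nrf1 itself (0.54, SE 0.13).

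**Figure D5:**
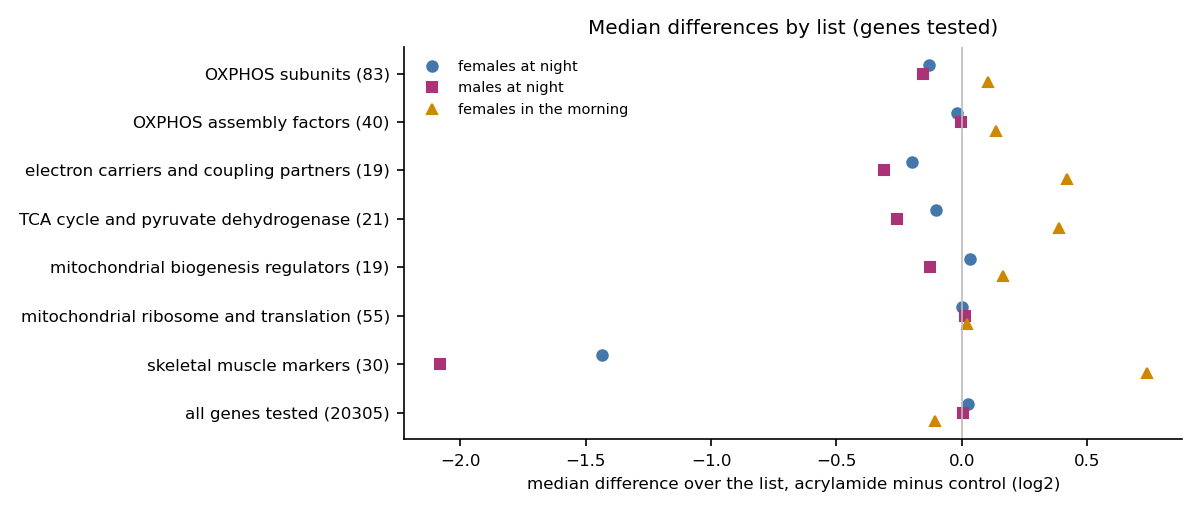
Median difference over each list, acrylamide minus control (log2), in the night females, night males and morning females, with the number of genes tested in brackets. The subunits, the electron carriers and the citric acid cycle genes lie below 0 in both night strata and above 0 in the morning, as do the 30 muscle markers and the assembly factors, and the mitochondrial ribosome has medians of 0.00162, 0.01 and 0.02.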

How the data were processed

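Gene expression was measured on 24 single-colour Agilent arrays, 4 in each of 6 groups. Each deposited scanner file holds spot intensity, background-subtracted by Agilent Feature Extraction 10.1.1.1 per the file headers, with probe positions on rn4. A deposited value table holds log2 intensity centred on the median of each array, as a comparison with the deposited scanner files showed, and served as an alternative.

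The log2 processed signal minus the 75th percentile of each array was used, control spots were left out, and a probe stayed in if 3 or more arrays of any group had it well above background. Each gene kept its brightest probe. Group means over all 24 arrays were fitted with limma 3.58.1 in R 4.3.3 and 2-sided p-values adjusted by Benjamini-Hochberg over 20305 genes, at 0.05. Between 71.5% and 82.3% of spots were well above background, and the number of arrays limits the precision. On data simulated for acrylamide in females in the morning, with 20305 genes, 42% of 50 genes changed by 1 log2 unit were recovered and 4% of 50 changed by 0.5. The noise was drawn independently for each gene, with the same spread in every group. The acrylamide arrays here scattered more than the controls, so these rates need not hold for the real arrays or for the night strata. Deviations of same-numbered arrays from their group means correlated at r -0.23 to 0.439 (median 0.0232 over 60 pairs). Of the 24 arrays, 12 matched best with an array of their own number, so pairing by number was not settled. On every night array the number is also the column on the slide, so number and column cannot be told apart there. Current symbols of 74 member genes came by accession from RefSeq. The rule for named genes took, for each comparison, the members called (up to 20) or else the 10 with the greatest absolute difference, the muscle and widely expressed isoforms, and the member nearest the median of each complex; members whose groups did not overlap were added after their values were seen. Alternatives are given in the closing section. The members and gene lists were chosen with earlier results of these data known. For night against morning, 1 member that the rule names is not reported here.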

Additional observations from a re-analysis of the deposited data

Results flagged for a closer look

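In 11 of 144 groups of 4 arrays, 1 array lay far from the other 3 (a gap to them past Dixon's critical value). Chance would give about 7.2 if the groups were independent. They cover only part of the members, and the genes share the same arrays, so the 11 cannot be tested against that number. Of the arrays of acrylamide females in the morning, replicate 1 was high for Atp5f1c (5.17, others 4.19 to 4.31), Ndufa9 (4.11, others 3.24 to 3.32) and Ndufs3 (4.79, others 3.85 to 3.97). It was the array with thyroid markers at -3.02, and the part of that in these values was not tested. Of the acrylamide females at night, replicate 1 was low for Atp5f1c (3.33, others 3.84 to 3.93) and Ndufb5 (3.95, others 4.44 to 4.46). Of the acrylamide males at night, replicate 2 was low for Ndufa7 (-4.24, others -1.45 to -0.99). Among control females at night, replicate 4 was high for Cox5a (5.14, others 4.81 to 4.86) and Cox8b (5.64, others 5.32 to 5.33), and replicate 1 for Dmac2 (-0.79, others -0.90 to -0.89). Among control females in the morning, replicate 3 was low for Cox6a1 (6.51, others 6.81 to 6.84) and replicate 2 high for Ndufa7 (-0.77, others -1.09 to -1.06).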

How the results depend on the processing

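Under the settings other than leaving out 1 array, the direction and the call stayed the same in 1769 of 1832 results tested, and they reversed in 43. The members called with acrylamide in the morning came to 0 with the deposited value table, no filter on dim probes, slide as a term, only the compared groups in the fit, array weights, without the 4 arrays that stood apart in tissue markers and without the 2 arrays against their sex label. Leaving out 1 array gave 0 to 6 (6 without replicate 3 of the acrylamide arrays). The 4 arrays that stood apart all had acrylamide. At night they were replicate 2 of the females and replicates 2 and 4 of the males, and in the morning replicate 1. Other arrays that differed from their group in some markers stayed in. Leaving out these 4 arrays, or the 2 against their sex label, was added after the data were seen. Between night and morning, array weights gave 38 members called, the deposited table gave a median of 0.12, and leaving out 1 array gave 21 to 25 called. Whether replicate numbers pair the samples was not settled. With the number as a replicate block 1 member was called with acrylamide in the morning (Atp5f1c, adjusted p = 0.0494), 22 between night and morning and 0 in the other comparisons.

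The other reversals follow; their cause was not tested. With the muscle mean as a covariate, acrylamide at night gave 0.00603 for Atp5mc3, -0.13 for Cox6a1 and -0.12 for Cox8a in females, and -0.20 for Cox6a1, -0.084 for Cox8a and 0.014 for Uqcrq in males. Cox6a2 came to -0.39 with acrylamide in the morning, 0.24 for the effect in males minus females, 0.14 for the effect at night minus morning and -0.71 for night minus morning in controls (adjusted p = 0.00111, past the threshold), and Cox6a1 to -0.066 for the effect in males minus females. On the deposited table, males at night gave 0.040 for Ndufa5, 0.014 for Sdhb, 0.00972 for Uqcrq and 0.029 for Atp5f1a, and Cox7a2 gave 0.052 for the effect in males minus females. Quantile normalization gave -0.074 for Cox6a1 there and 0.045 for Cox7a2 for the effect at night minus morning. Array weights gave 0.028 for Cox6a2 for the effect in males minus females and 0.059 for Cox7a2 in the morning. For Cox6b2 in the morning, normexp gave 0.00827 and slide as a term 0.013.

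Without the 4 arrays apart, females at night gave -0.11 for Cox6a1 and -0.064 for Cox8a, and males at night gave 0.033 for Dmac2, 0.059 for Uqcrq, 0.039 for Cox4i1 and 0.085 for Atp5f1a. Atp5hl1 gave -0.043 in the morning and Ndufa7 0.079 over the 3 strata. The effect in males minus females then gave 0.23 for Atp5f1b, 0.34 for Uqcrc1, 0.066 for Dmac2, 0.071 for Ndufs8, 0.26 for Cox6b2, 0.43 for Cox6a2, 0.39 for Cox8b and 0.050 for Cox7a2. Without the 2 arrays against their label, males at night gave 0.00205 for Ndufa5 and 0.022 for Atp5f1a, Cox7a2 gave 0.015 in the morning, and the effect in males minus females gave 0.16 for Cox8b and 0.085 for Cox7a2.

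Leaving out 1 array at a time also turned some signs. In females at night the ranges were -0.11 to 0.26 for Cox6a1, -0.22 to 0.019 for Cox7a2, -0.064 to 0.25 for Cox8a and -0.26 to 0.00127 for Ndufb9. In males at night they were -0.28 to 0.022 for Atp5f1a, -0.043 to 0.25 for Cox6a1, -0.22 to 0.00205 for Ndufa5 and -0.28 to 0.00910 for Uqcrq. In the morning they were -0.043 to 0.20 for Atp5hl1, -0.29 to 0.54 for Cox6a2, -0.29 to 0.077 for Cox6b2, -0.19 to 0.12 for Cox7a2 and -0.046 to 0.50 for Cox8b. For the effect in males minus females they were -0.15 to 0.23 for Cox6a1, -1.09 to 0.59 for Cox6a2, -0.28 to 0.085 for Cox7a2, -0.020 to 0.29 for Cox8a and -0.57 to 0.16 for Cox8b. Cox7a2 gave -0.22 to 0.097 for the effect at night minus morning, Cox6a2 -0.44 to 0.38 for night minus morning in controls, and Cox6a1 -0.021 to 0.26 for males minus females in controls. The members' median ranged over -0.19 to -0.03 (females at night), -0.22 to -0.06 (males at night), -0.01 to 0.24 (morning), -0.09 to -0.02 (mean of the 3), -0.11 to 0.07 (effect in males minus females), -0.36 to -0.08 (effect at night minus morning), -0.21 to -0.05 (night minus morning) and 0.22 to 0.31 (males minus females). Signal over background limited 1 member, Cox8c, and saturation limited the morning values of 17.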
